A study of Mus musculus with 16 samples.

Results

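Rn7s1 and Rn7s2 are the mouse genes of the signal recognition particle RNA, also called 7SL RNA. They were found among the counted intervals by exact match of chromosome, start and end to the GENCODE release M21 annotation of GRCm38. The 2 intervals are 2 of the 1885 with at least 1 read in any library, and both were among the 749 that passed the filter on low counts. Both genes are annotated as misc_RNA. Rn7s1 (ENSMUSG00000099021) lies on the plus strand at chr12:69159295-69159594. Rn7s2 (ENSMUSG00000099250) lies on the minus strand at chr12:69361182-69361481, with 201587 bases between the ends of the 2 genes.

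Small RNA was sequenced from 16 libraries of 8 populations sorted by flow cytometry from the bone marrow of wild-type (WT) mice, with 2 libraries per population and no treatment in any group. The labels give no age, sex or strain. The 4 progenitor populations are labelled CLP, CMP, GMP and MEP, the usual abbreviations of the common lymphoid, common myeloid, granulocyte-macrophage and megakaryocyte-erythroid progenitors. The 4 mature populations are labelled B, T, Myloid and Erythroid. The labels list the antibodies of the sort (a lineage cocktail and antibodies to c-Kit, Sca-1, CD34, CD127, Flk2, CD16/32 and CD49b) without giving the gate of each population. Nothing in them says that a population's 2 libraries were made from separate mice, so every p-value here rests on a spread between libraries that may be technical.

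The signal recognition particle binds the signal sequence of a nascent secreted or membrane protein as it leaves the ribosome and carries the ribosome to the endoplasmic reticulum. Its RNA is the scaffold on which the SRP proteins assemble. The 5′ and 3′ ends of the RNA fold together into the Alu domain, which pauses translation, and the middle forms the S domain, where SRP54 recognises the signal sequence. 7SL genes are transcribed by RNA polymerase III. They are the source of the primate Alu and rodent B1 repeats, so the genome holds many sequences related to them.

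The relation between the 2 genes comes first because it sets what the counts can resolve. Rn7s1 and Rn7s2 are each 300 bases long and differ at 0 bases. The last 77 bases, from base 224 on, are also covered by a separately counted inner interval in each gene.

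The inner intervals at the 3′ end are annotated as miRNA genes, Gm47295 (chr12:69159518-69159596, plus strand) in Rn7s1 and Gm47299 (chr12:69361179-69361258, minus strand) in Rn7s2. They run 2 and 3 bases past the end of their gene, and those are the only bases of the inner intervals outside the shared stretch.

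A second pair of inner intervals, Gm47287 in Rn7s1 and Gm47305 in Rn7s2, covers bases 143 to 212. These had 8 and 20 counts in all libraries together and did not pass the filter on low counts. Gm47295 had 2268 counts and Gm47299 had 2927, against 11438 for Rn7s1 and 12665 for Rn7s2.

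A read from inside either gene matches both equally well, and how the authors assigned such reads is not given in the sources used here. The counts of the 2 genes were therefore also summed, and the sum is the level of 7SL RNA that does not depend on the assignment between the 2 loci. Other loci share stretches of the sequence as well. Of the 271 windows of 30 bases in the gene, 221 (81.5%) occurred exactly in another listed interval outside both loci, and of the 226 windows of 75 bases 129 (57.1%) did. The closest over at least 200 bases was Rn7s6 on chromosome 6, whose first 214 bases match both genes at 98.6% identity.

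Library totals ran from 8197458 to 41799906 counts. Between 89.0% and 93.2% of the values in a library were even, as when both mates of a read pair are counted, so counting intervals were taken on read pairs. Libraries were cut from a gel at 170 to 370 bp with adaptors. The labels give no adaptor length, so intact 300-base RNA and its fragments cannot be told apart in these counts. The 2 libraries of GMP, of MEP and of Erythroid stood apart. The standard deviation (SD) of the log2 ratio between them was 0.56, 0.65 and 0.62, against 0.12 to 0.21 in the other populations, and each of these 6 libraries was nearest to a library of another population. Marker miRNAs were measured as summed CPM (counts per 1000000 of a library size scaled by the trimmed mean of M values, TMM). The 4 lymphoid markers reached 511 to 567 CPM in T and 191 to 214 in B, and at most 186 in any other library. Of these, only Mir150 had a higher mean in B (81.8 CPM) than in Myloid (38.5). Mir342, Mir181a-1 and Mir181a-2 were lower in B (16.2, 55.1 and 49.5 CPM) than in Myloid (18.2, 63.8 and 59.0), so the list as a whole did not mark B. The 3 myeloid markers reached 1291 to 1384 CPM in Myloid and at most 754 elsewhere. The 4 stem and progenitor markers were at 36.4 to 39.4 CPM in CMP and at most 20.9 elsewhere. The 2 erythroid markers were at 114 to 184 CPM in Erythroid and 127 to 187 in MEP, but also at 124 to 134 in CLP and 67.4 to 119 in GMP, so they did not set Erythroid apart from these 3 progenitors.

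By the mean of the sum, 7SL RNA was highest in Erythroid cells and in CMP and lowest in T cells. The T libraries overlapped those of B, CLP and MEP. All levels are in TMM-scaled CPM, given for libraries 1 and 2 in turn. In Erythroid the sum of both genes was 134 and 98.0. In CMP it was 90.2 and 99.5, and in Myloid 77.5 and 89.8. The other 5 populations lay close together: GMP at 64.6 and 62.0, B at 57.0 and 69.3, CLP at 58.6 and 62.4, MEP at 60.2 and 59.5, and T at 53.4 and 60.6. All 6 libraries of Erythroid, CMP and Myloid were above all 10 libraries of the other populations. Erythroid, CMP and Myloid were grouped here after the values were seen. The share of all features with such a split between their highest populations and the rest was not counted. In bulk libraries, a lower share of cells that carry the RNA and less RNA per cell cannot be told apart.

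**Figure D1:**
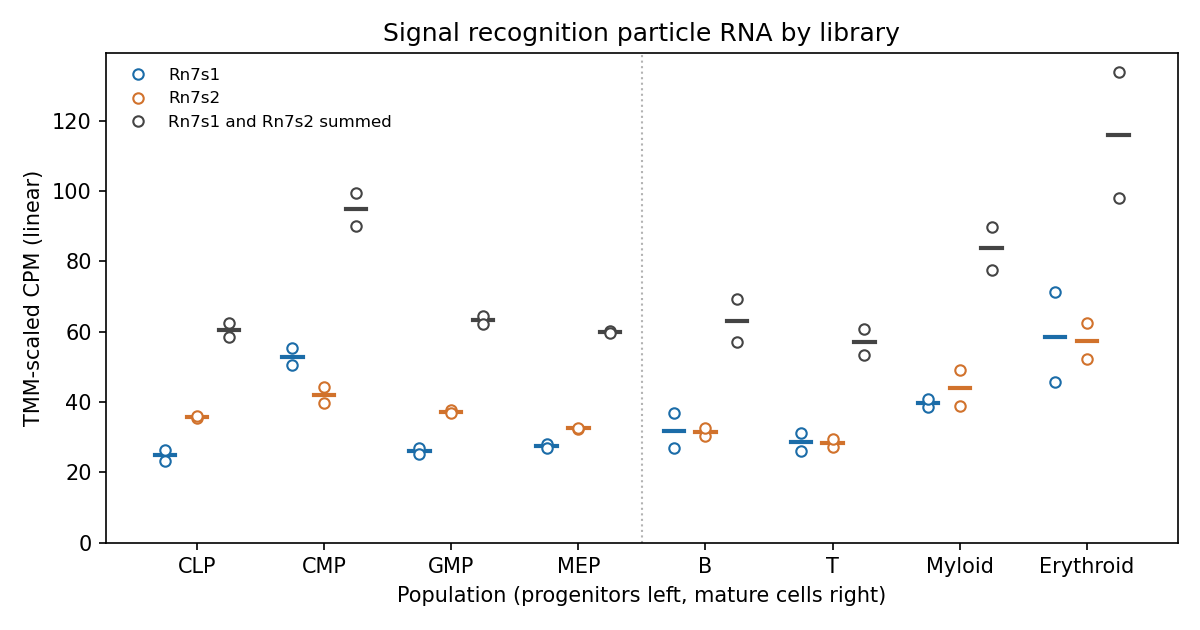
TMM-scaled CPM (linear axis) of Rn7s1, Rn7s2 and their sum by population. Each open circle is 1 library and each bar the mean of 2, with progenitors left of the dotted line. The mean summed level is highest in Erythroid, with libraries at 134 and 98.0, followed by CMP and Myloid. For the sum, the 2 Erythroid libraries lie farther apart than those of any other population.

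The mean of the sum was 116 ± 25.3 CPM in Erythroid (SD, n = 2), 94.8 ± 6.61 in CMP and 83.7 ± 8.75 in Myloid. It was 63.3 ± 1.78 in GMP, 63.2 ± 8.66 in B, 60.5 ± 2.68 in CLP, 59.9 ± 0.484 in MEP and 57.0 ± 5.14 in T. In edgeR's quasi-likelihood test over the 8 populations the sum varied (Benjamini-Hochberg adjusted p = 0.000676), as did Rn7s1 (adjusted p = 0.00108) and Rn7s2 (adjusted p = 0.000939). This test called 61.1% of all 749 features, so variation over these populations was common among the RNAs measured. With the snoRNA intervals left out of the table, the sum (adjusted p = 0.0514) and Rn7s2 (adjusted p = 0.245) no longer passed.

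Rn7s1 alone was at 71.4 and 45.7 CPM in Erythroid and at 50.4 and 55.2 in CMP. It was at 38.5 and 40.8 in Myloid, 26.8 and 36.8 in B, and 26.1 and 31.0 in T. The 3 remaining progenitors were the lowest, with MEP at 27.9 and 26.8, GMP at 27.0 and 25.1, and CLP at 23.3 and 26.3. The libraries of CMP did not overlap those of any population except Erythroid, but the difference from Myloid did not pass (adjusted p = 0.158, edgeR). The share of all features with such a lack of overlap was not counted.

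Rn7s2 was at 62.3 and 52.3 CPM in Erythroid, above all other libraries. It was at 39.0 and 49.1 in Myloid, 39.8 and 44.3 in CMP, 37.6 and 36.9 in GMP, and 35.3 and 36.1 in CLP. MEP was at 32.3 and 32.7, B at 30.2 and 32.5, and T at 27.2 and 29.6. CLP and GMP were thus above B and T for Rn7s2 in every library, whereas for Rn7s1 their libraries overlapped or lay below. Of these pairs, edgeR called Rn7s2 only for GMP over T (adjusted p = 0.0388). It did not pass for CLP over B (adjusted p = 0.329), CLP over T (adjusted p = 0.0708) or GMP over B (adjusted p = 0.204). The share of all features with such an order was not counted.

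No 2 neighbours in these orders differed past the threshold of 0.05, neither for the genes nor for the sum. The smallest adjusted p between neighbours of the summed order was 0.0740, for Myloid over GMP. Over all 28 pairs of populations, 12 pairs passed for Rn7s1, 12 for Rn7s2 and 13 for the sum, where 27.5% of all features were called over the 28 pairs together and 6.94% to 47.8% in single pairs. The sum passed in all 5 pairs of Erythroid with GMP, B, CLP, MEP or T, and in all 5 pairs of CMP with the same populations. Myloid passed against CLP, MEP and T. With other scalings the number of pairs passing for the sum was 8 (relative log expression, RLE) and 5 (upper quartile), with the snoRNA intervals left out it was 1, and without 1 library it ranged from 7 to 17. For Rn7s2 it was 7 (DESeq2), 3 (RLE), 4 (upper quartile) and 3 (no low-count filter), and 4 to 13 without 1 library. With the snoRNA intervals left out, edgeR called Rn7s2 in 0 pairs, with 3 of 28 at an unadjusted p under 0.05. For Rn7s1 it was 7 with the snoRNA intervals left out and 7 to 15 without 1 library. The lowest counts of both genes came without CLP library 1.

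Against the mean of the other 7 populations, Erythroid was higher for the sum by 0.77 ± 0.11 on the log2 scale (standard error, SE; adjusted p = 0.00102, edgeR). That comparison called 11.1% of features higher. CMP was higher by 0.44 ± 0.11 (adjusted p = 0.0107; 17.5% of features called higher), and T was lower by a log2 difference of -0.40 ± 0.12 (adjusted p = 0.0190; 29.5% called lower). The level of each gene depends on how reads matching both were assigned, which is not given. By gene, Rn7s1 was higher in Erythroid (0.87) and CMP (0.71) and lower in CLP (-0.54), where 10.9% of features were called lower. Rn7s2 was higher in Erythroid (0.69) and lower in T (-0.47). In CMP the log2 difference of Rn7s2 was 0.18 (adjusted p = 0.211).

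The first comparison was of progenitors with mature cells, the contrast the study's design text names. The summed level of 7SL RNA overlapped widely between the 2 stages. Over 8 libraries each, the lowest, median and highest were 58.6, 62.2 and 99.5 CPM in progenitors and 53.4, 73.4 and 134 in mature cells. The progenitor mean was lower by a log2 difference of -0.17 ± 0.078, which did not pass (adjusted p = 0.0901, edgeR). Rn7s1 passed at -0.29 ± 0.10 (adjusted p = 0.0355), and Rn7s2 at -0.076 ± 0.069 did not (adjusted p = 0.384). The background of this comparison was high, with 49.8% of all features called.

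CMP was high among the progenitors, and Erythroid and Myloid among the mature cells. The call for Rn7s1 was lost in 18 of 32 alternatives. Among them were an edgeR test of 4 populations against 4 on pooled counts (adjusted p = 0.627) and leaving out 11 of the 16 libraries one at a time. Scaling by library totals shifted the median of all features by 0.23 and put the sum at 0.064 (adjusted p = 0.433), with the sign turned.

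Within the erythroid branch, 7SL RNA was lower in the progenitor MEP than in Erythroid cells. MEP lay within the range of the B and T libraries. Erythroid had the highest mean of all populations, but its difference from CMP did not pass for the sum (adjusted p = 0.207, edgeR). The MEP libraries were at 60.2 and 59.5 CPM and the Erythroid libraries at 134 and 98.0, with no overlap. Libraries did not overlap for 46.5% of features in this pair. The sum was lower in MEP by a log2 difference of -0.95 ± 0.16, a fold of 1.93 (adjusted p = 0.00316, edgeR), where 9.88% of features were called, 4.41% lower and 5.47% higher in MEP. Rn7s1 was lower by -1.10 ± 0.21 (adjusted p = 0.00690) and Rn7s2 by -0.82 ± 0.14 (adjusted p = 0.00357).

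The call for the sum held in all 29 alternatives, with values from -1.16 to -0.69 and adjusted p from 2.46e-05 to 0.0487. Both populations are among those whose libraries stood apart. With library 1 of GMP, MEP and Erythroid left out together, the sum was at -0.70, and with library 2 of each left out it was at -1.15. However, the deviations of library 1 from library 2 ran in opposite directions in MEP and Erythroid (r = -0.91 over 320 features). Each of these settings thus kept MEP and Erythroid libraries that deviated in opposite directions. They cannot show how the call depends on that split. The call for Rn7s1 alone was lost without Erythroid library 1 (-0.72, adjusted p = 0.0567) and without MEP library 2 (-1.14, adjusted p = 0.0520). Rn7s2 was lost with upper-quartile scaling (-0.71, adjusted p = 0.0924) and with the snoRNA intervals left out (-0.83, adjusted p = 0.112). Markers of other cells reached higher summed levels in Erythroid, with ranges that overlapped those of MEP. The 3 myeloid markers summed to 173 to 360 CPM in MEP and 355 to 754 in Erythroid, and the 4 lymphoid markers to 44.1 to 111 and 52.2 to 148. Their part in the difference was not tested.

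**Figure D2:**
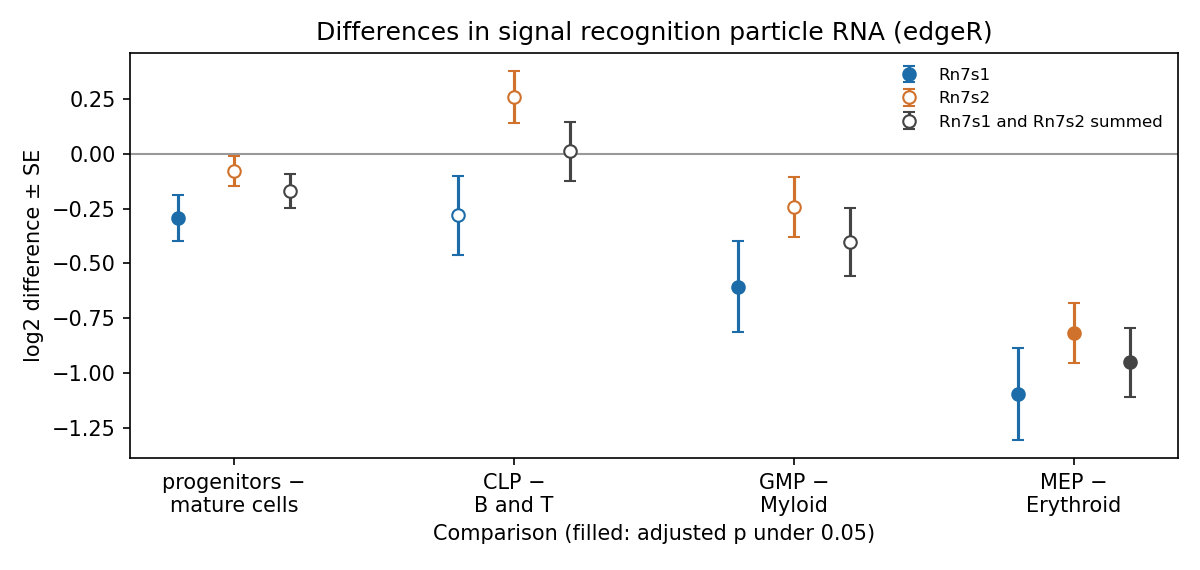
Log2 differences of Rn7s1, Rn7s2 and their sum in the 4 comparisons of stage and branch, from edgeR's fit, with bars of ± 1 SE. Filled symbols have an adjusted p under 0.05. All 3 are filled for MEP against Erythroid, from -1.10 to -0.82, and in CLP against B and T the 2 genes point in opposite directions around a sum of 0.012.

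In the granulocyte-monocyte branch, the GMP libraries (64.6 and 62.0 CPM) were below both Myloid libraries (77.5 and 89.8) for the sum. The log2 difference of -0.40 ± 0.16 did not pass (adjusted p = 0.0740, edgeR), where 31.8% of features were called and libraries did not overlap for 66.6%. Rn7s1 passed at -0.61 ± 0.21 (adjusted p = 0.0464), and Rn7s2 at -0.24 ± 0.14 did not (adjusted p = 0.207). The call for Rn7s1 was lost in 21 of 31 alternatives, among them DESeq2 (adjusted p = 0.0785), RLE scaling (adjusted p = 0.102) and leaving out either library of GMP or of Myloid (adjusted p = 0.103 to 0.214). The sum passed in 7 of 29 alternatives, and with the snoRNA intervals left out it turned to 0.067 (adjusted p = 0.899).

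In the lymphoid branch, the CLP libraries (58.6 and 62.4 CPM) lay within the range of the B and T libraries (53.4 to 69.3). The sum differed by 0.012 ± 0.13 on the log2 scale (adjusted p = 0.956, edgeR), with 43.3% of features called. The 2 genes gave log2 differences of opposite sign, -0.28 ± 0.18 for Rn7s1 (adjusted p = 0.241) and 0.26 ± 0.12 for Rn7s2 (adjusted p = 0.10). Scaling by library totals, which shifts the median feature by 0.45 here, put the sum at 0.46 (adjusted p = 0.00618).

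The step from progenitor to mature cell differed between the lymphoid and erythroid branches. The difference of the 2 log2 differences was 0.96 ± 0.20 for the sum (adjusted p = 0.00590, edgeR) and 1.08 ± 0.18 for Rn7s2 (adjusted p = 0.00130), where 21.4% of features were called. For Rn7s1 it was 0.81 ± 0.27 (adjusted p = 0.0563). The granulocyte-monocyte branch was not shown to differ from either. The difference of the sum was 0.41 ± 0.20 from lymphoid to granulocyte-monocyte (adjusted p = 0.194, 17.9% called) and 0.55 ± 0.22 from granulocyte-monocyte to erythroid (adjusted p = 0.153, 9.21% called). The lymphoid to erythroid call for the sum was lost with the snoRNA intervals left out (0.82, adjusted p = 0.253).

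Although the sequences of the 2 genes are identical, their counts were not split evenly, and the split was not the same in every population. How reads matching both were assigned is not given, so the split cannot be read as the expression of each gene. Over all libraries Rn7s1 took 47.5% of the counts of both. Its share was 41.0% ± 1.71 in CLP (SD, n = 2), 41.1% ± 0.906 in GMP and 45.7% ± 0.921 in MEP, all below 50%. It was 55.7% ± 0.270 in CMP, the highest. The mature populations lay nearer to 50%, with 50.1% ± 4.37 in B, 50.1% ± 1.54 in T, 47.5% ± 3.03 in Myloid and 50% ± 4.78 in Erythroid. The 95% Wilson interval on read pairs was below 50% in 8 libraries and above 50% in 3, and held 50% in 5. These intervals cover counting error alone, as reads without molecular identifiers are not independent molecules.

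**Figure D3:**
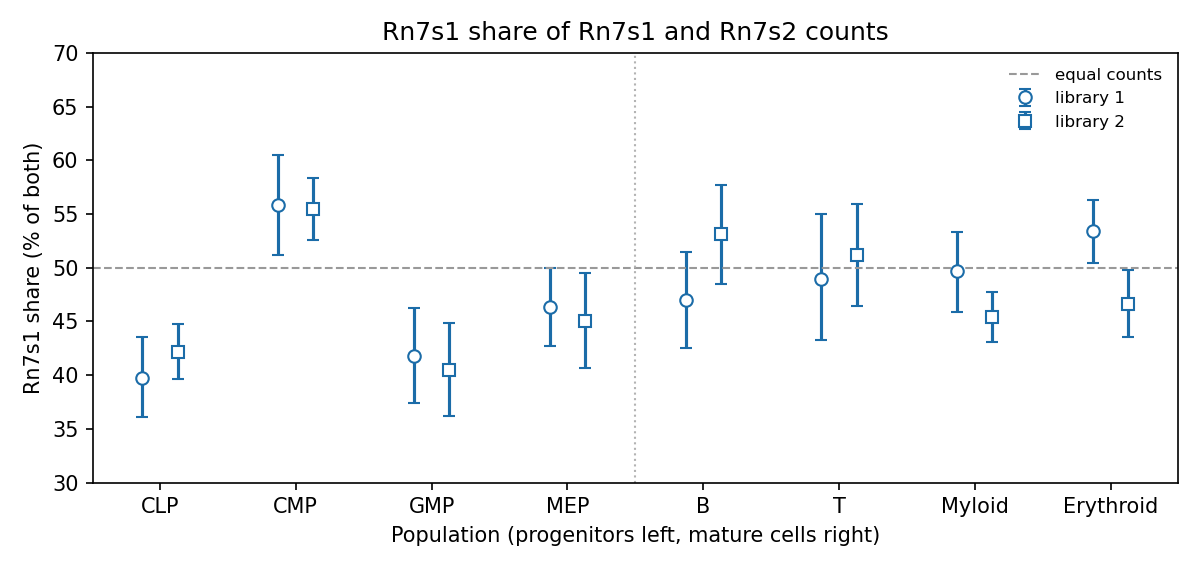
Share of Rn7s1 in the counts of Rn7s1 and Rn7s2, in percent, by library, with 95% Wilson intervals on read pairs (circles library 1, squares library 2; the axis runs from 30% to 70%). Both CMP libraries lie above the dashed line of equal counts, at 55.9% and 55.5%, and both libraries of CLP, GMP and MEP lie below it.

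The 2 libraries of CMP gave shares of 55.9% (interval 51.2% to 60.5%) and 55.5% (52.6% to 58.4%). Those of CLP gave 39.8% (36.1% to 43.5%) and 42.2% (39.6% to 44.7%), and those of GMP 41.8% (37.4% to 46.3%) and 40.5% (36.2% to 44.9%). In Erythroid the libraries fell on opposite sides, at 53.4% (50.4% to 56.3%) and 46.6% (43.5% to 49.8%). The CMP interval thus overlapped neither that of CLP nor that of GMP in any library. Between stages, the log2 ratio of Rn7s1 to Rn7s2 averaged -0.24 over the 4 progenitor populations and -0.033 over the 4 mature ones. The difference of -0.21 did not pass a two-sided exact permutation test over the 70 assignments of the 8 population means (p = 0.314, adjusted p = 0.629 over 2 tests; the smallest p possible is 0.0286).

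The split of the 3′ inner intervals lay on the side of the genes' split in some libraries and not in others. The shares of Rn7s1 and of Gm47295, the inner interval in Rn7s1, lay on the same side of 50% in 9 libraries and on opposite sides in 6, with 1 inner share at 50%. The Wilson intervals of both shares left out 50% on the same side in only 2 libraries, and on opposite sides in 2. In CLP library 2 they were 42.2% and 41.4% (36.7% to 46.2%), and in Myloid library 2 they were 45.4% and 42.9% (38.1% to 47.8%). Both shares were below 50% in both MEP libraries as well, but there the Wilson interval of the inner share held 50% (39.71% to 55.65% and 39.66% to 56.11%). In CMP, where Rn7s1 took more than Rn7s2, Gm47295 took 30.0% (21.5% to 40.1%) and 32.5% (26.8% to 38.8%) of the counts of both inner intervals. In GMP, where Rn7s1 took less, Gm47295 took 54.4% (44.2% to 64.3%) and 54.5% (43.5% to 65.2%). In CMP the interval of the inner share lay below 50% in both libraries while that of the whole gene lay above 50%. This comparison was chosen after the values were seen and was not tested.

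The 3′ inner intervals held the smallest share of counts in Erythroid, the population with the highest mean summed level of the 2 genes. The whole genes span the 3′ end and are part of the denominator, so this share does not set the 3′ end against the rest of the RNA. As a level, the 2 inner intervals summed to a mean of 13.8 CPM in Erythroid, between 11.0 in GMP and 19.8 in B. The 3′ inner intervals held 10.8% ± 1.02 of the counts of the genes and these intervals together in Erythroid (SD, n = 2), 14.8% ± 1.66 in GMP, 17.0% ± 0.289 in CMP and 17.5% ± 0.157 in T. They held 18.3% ± 0.242 in Myloid, 19.7% ± 4.11 in MEP, 21.02% ± 1.72 in CLP and 23.9% ± 0.624 in B. The Erythroid libraries, at 10.1% (8.50% to 11.9%) and 11.5% (9.74% to 13.5%), were the lowest of the 16. The next library was GMP library 2 at 13.6% (11.0% to 16.7%), whose interval overlapped theirs. Progenitors and mature cells had means of 18.1% and 17.6% (exact permutation p = 0.943, adjusted p = 0.943).

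**Figure D4:**
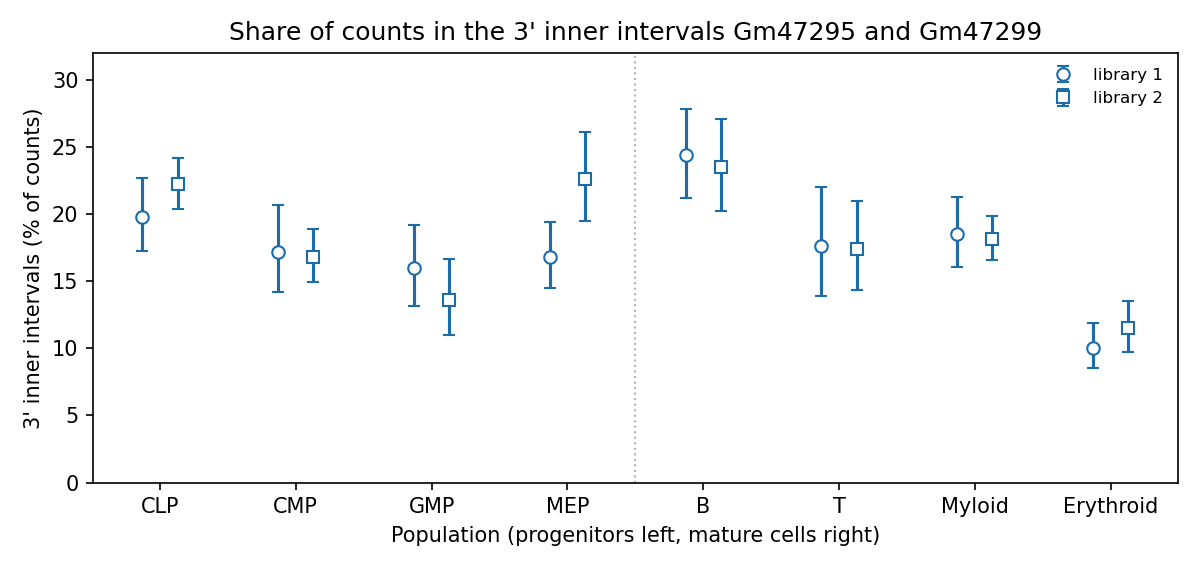
Share of the 3′ inner intervals Gm47295 and Gm47299 in the counts of Rn7s1, Rn7s2 and these intervals, in percent, by library, with 95% Wilson intervals on read pairs (circles library 1, squares library 2). The 2 Erythroid libraries, at 10.1% and 11.5%, are the lowest, and the 2 B libraries, at 24.4% and 23.5%, are the highest.

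As levels, neither 3′ inner interval passed for MEP against Erythroid. Gm47295 was at 6.89 ± 0.824 CPM in Erythroid and 7.07 ± 1.79 in MEP (log2 difference of MEP over Erythroid 0.032, adjusted p = 0.940, edgeR). Gm47299 was at 6.94 ± 0.754 and 7.73 ± 1.92 (0.15, adjusted p = 0.777). Gm47299 was lower in GMP, at 5.01 ± 0.809 CPM, than in Myloid, at 10.4 ± 1.38 (log2 difference -1.06 ± 0.26, adjusted p = 0.00998). Over the 28 pairs of populations Gm47295 passed in 0 with edgeR (2 at an unadjusted p under 0.05; 0 with DESeq2) and Gm47299 in 8. Whether a read inside an inner interval was also counted for the whole gene is not given in the sources used here. With the inner intervals added to both genes, the sum for GMP against Myloid passed at -0.46 (adjusted p = 0.0409).

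Other 7SL-like loci were listed at lower levels. Beside Rn7s1 and Rn7s2, 9 misc_RNA intervals matched the gene on the same strand over at least 200 bases. Rn7s6 averaged 4.72 CPM. Its population means ran from 3.87 in B to 5.38 in Myloid and did not pass over the 8 populations (adjusted p = 0.905, edgeR). For MEP against Erythroid its log2 difference was 0.076 ± 0.31 (adjusted p = 0.900). Gm26461 (96.5% identity over 201 bases) averaged 3.72 CPM and Gm23153 (95.2% over 208 bases) 3.25 CPM, with MEP against Erythroid at -0.52 (adjusted p = 0.517) and -0.13 (adjusted p = 0.777). These 3 were named after their values were seen. Of the intervals with at least 80% identity to the gene over at least 80% of their own length, Gm24514 was the most abundant outside the 2 loci. It was higher in CLP, at 4.03 CPM, than in B and T, at 1.53 and 1.83 (log2 difference 1.25 ± 0.30, adjusted p = 0.00629), and in progenitors than in mature cells (0.55 ± 0.18, adjusted p = 0.0263). Gm24105 (91.7% identity over the whole gene) had 94 counts in all.

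The other small RNAs made by RNA polymerase III were read beside the 2 genes. Of a list of them, Rn7sk, Rny1, Rny3, Vaultrc5 and Rnu6 passed the filter on low counts. For MEP against Erythroid, 0 of these 5 passed in either direction with edgeR (1 at an unadjusted p under 0.05; 0 with DESeq2). Their median log2 difference was -0.18, against 0.011 over all tested features. Between progenitors and mature cells 2 were higher and 0 lower, against 26.7% and 23.1% of all features. For CLP against B and T 2 were higher and 0 lower (25.2% and 18.0%), and for GMP against Myloid 1 was higher and 1 lower (16.3% and 15.5%). Against the mean of the other 7 populations, CMP was higher for Rny1 (0.74, adjusted p = 0.000534, edgeR), Rny3 (0.58, adjusted p = 0.0367) and Rn7sk (0.23, adjusted p = 0.0319). T was lower for Rny1 (-0.70, adjusted p = 0.00124) and Rn7sk (-1.20, adjusted p = 3.96e-07). Erythroid was higher for Rnu6 (1.61, adjusted p = 0.0401). The rest of the 5 did not pass there. These calls were made for 17.5%, 29.5% and 11.1% of all features.

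Rn7sk, the 7SK RNA that holds the elongation factor P-TEFb inactive, was highest in GMP at 157 CPM, 92.1 in CLP and lowest in T at 39.4. It was higher in progenitors by 0.53 ± 0.049 (adjusted p = 4.05e-06, edgeR), in CLP over B and T by 0.73 ± 0.082 (adjusted p = 2.37e-05) and in GMP over Myloid by 0.86 ± 0.098 (adjusted p = 0.000106). Rny1, a Y RNA bound by the Ro60 protein, was lower in GMP (37.4 CPM) than in Myloid (61.1 CPM; -0.71 ± 0.17, adjusted p = 0.00896). Rny3, another Y RNA, was higher in progenitors (0.56 ± 0.13, adjusted p = 0.00426) and in CLP over B and T (0.81 ± 0.22, adjusted p = 0.0122). Vaultrc5, the RNA of the vault particle, and Rnu6, a U6 spliceosomal RNA, passed in none of the 4 comparisons of stage and branch. Terc, the telomerase RNA, made by RNA polymerase II, was at 0.07 to 0.51 CPM and passed in none either.

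Per kilobase of interval, the mean level over all libraries was 359 CPM for Rny1, 262 for Rn7sk, 129 for Rn7s2, 121 for Rn7s1, 71.3 for Rny3 and 44.0 for Vaultrc5. The share of Rn7s1 in all counts of a library lay between 0.0021% and 0.0069%, and that of Rn7s2 between 0.0022% and 0.0060%.

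The pattern of each gene over the 8 population means of log2 CPM was compared with those of 318 other features, each at 10 CPM or more on average. These correlations are descriptions over 8 points that share the libraries and their scaling. Rn7s1 and Rn7s2 correlated with each other at r = 0.80 (Pearson). The 5 features most like Rn7s1 were Gm47301 (0.72), the 45S pre-rRNA interval (0.71), Gm47285 (0.67), the C/D snoRNA Snord99 (0.66) and Rny1 (0.55). Gm47301, Gm47285 and Snord99 were highest in CMP, at 563, 41.4 and 1996 CPM, as was the 45S interval. The 5 most like Rn7s2 were Rnu7 (0.73), Gm22879 (0.62), Gm23734 (0.62), Snord22 (0.61) and Gm24871 (0.59). Rnu7, the U7 RNA of histone mRNA processing, was at 381 CPM in Erythroid and 384 in Myloid and lowest in T at 167, and Snord22 was highest in Erythroid at 140. The 2 lists of 5 had 0 features in common.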

How the data were processed

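The deposited values are raw counts per annotated small RNA interval, 1 file per library, not normalized by the authors per the values; intervals absent from a file were taken as 0. The submitters' processing notes name Trimmomatic 0.38, Bowtie2 2.3.4.1 and GRCm38; the counting program, use of strand and treatment of reads with several matches are not given in the sources used here. Intervals were matched to GENCODE M21, and their sequences, which are not reported here, were taken from its transcripts and compared with blastn 2.17.0. The main test was edgeR 4.0.16 under R 4.3.3 (filterByExpr by population, minimum count 10, 749 features; TMM scaling; quasi-likelihood fit of 1 mean per population, 8 residual degrees of freedom; Benjamini-Hochberg over 749 features, threshold 0.05). SE is the log2 difference over the square root of F. For the sum, both genes were replaced by 1 feature. DESeq2 1.42.0, other scalings, filters, left-out libraries and the inner intervals were alternatives. Named genes were the 2 genes, the listed RNA polymerase III RNAs, Terc, the 5 features most like each gene and intervals of at least 80% identity over 80% of their length. Genes, lists and tests were chosen with earlier results of these data known.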

Additional observations from a re-analysis of the deposited data

Results flagged for a closer look

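The step from progenitor to mature cell differed between branches by the test of the difference itself. From the lymphoid branch (CLP minus B and T) to the erythroid branch (MEP minus Erythroid) the log2 difference changed by 1.08 for Rn7s2 (adjusted p = 0.00130, edgeR, Benjamini-Hochberg). For Rn7s1 and Rn7s2 summed it changed by 0.96 (adjusted p = 0.00590). For both, Erythroid was above MEP in each library. Both calls were lost when the snoRNA intervals were left out (0.92, adjusted p = 0.198, and 0.82, adjusted p = 0.253).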

How the results depend on the processing

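Values are log2 differences unless called counts, and the cause of a change was not tested. The lower level of summed 7SL RNA in MEP than in Erythroid kept its direction and its call in all 29 alternatives, while most other calls did not hold throughout.

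Scaling mattered. With RLE factors Rn7s1 no longer passed for GMP against Myloid (-0.57), the sum for CLP against B and T changed sign (-0.015), and pairs called were 3 for Rn7s2 and 8 for the sum, with 1 population called against the other 7 for Rn7s2. With library totals Rn7s1 no longer passed between stages (-0.058). The stage difference changed sign for Rn7s2 (0.16, then passing at adjusted p = 0.0470) and the sum (0.064), as did CLP against B and T for Rn7s1 (0.17). Newly passing were CLP against B and T for Rn7s2 (0.71) and the sum (0.46), GMP against Myloid for the sum (-0.50), the lymphoid against granulocyte-monocyte branch for Rn7s1 (0.88) and Rn7s2 (1.05), and the lymphoid against erythroid branch for Rn7s1 (1.20), and 5 populations were called for each gene. With upper-quartile factors Rn7s1 was lost between stages (-0.16) and for GMP against Myloid (-0.53), and Rn7s2 for MEP against Erythroid (-0.71). Rn7s2 passed for CLP against B and T (0.61), the sign changed for Rn7s1 there (0.074) and for Rn7s2 between stages (0.062), and 4 pairs were called for Rn7s2 and 5 for the sum.

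Leaving out a class of RNA changed more. Without miRNA intervals, passing were CLP against B and T for Rn7s1 (-0.41), the stages for Rn7s2 (-0.19) and the sum (-0.27), and GMP against Myloid for Rn7s2 (-0.38) and the sum (-0.55). So were the lymphoid against erythroid branch for Rn7s1 (0.79), and for Rn7s2 the lymphoid against granulocyte-monocyte (0.50) and granulocyte-monocyte against erythroid branch (0.55). The sum for CLP against B and T changed sign (-0.13), and 5 and 6 populations were called for Rn7s1 and Rn7s2. Without snoRNA intervals Rn7s1 was lost between stages (-0.30) and for GMP against Myloid (-0.13), and Rn7s2 for MEP against Erythroid (-0.83). The lymphoid against erythroid branch was lost for Rn7s2 (0.92) and the sum (0.82), and the test over 8 populations for Rn7s2 (adjusted p = 0.245, edgeR) and the sum (adjusted p = 0.0514). Signs changed for the lymphoid against granulocyte-monocyte branch of Rn7s1 (-0.32) and Rn7s2 (-0.14), GMP against Myloid of Rn7s2 (0.23) and the sum (0.067), and CLP against B and T of the sum (-0.16). Pairs called were 7 for Rn7s1, 0 for Rn7s2 and 1 for the sum, and 0 populations were called for Rn7s2.

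Without a low-count filter Rn7s1 was lost between stages (-0.28) and for GMP against Myloid (-0.59), with 3 pairs and 1 population called for Rn7s2 and 7 pairs for the sum. With a 10 CPM filter Rn7s1 was lost for GMP against Myloid (-0.55) and passed for the lymphoid against erythroid branch (0.89). With DESeq2 Rn7s1 was lost for GMP against Myloid (-0.57), the sum for CLP against B and T was -0.015, and 7 pairs were called for Rn7s2. On read pairs the sum passed between stages (-0.20) and for GMP against Myloid (-0.43), with CLP against B and T at -0.011. Replacing Rn7s1 by the sum gave -0.17 between stages, -0.40 for GMP against Myloid, 0.012 for CLP against B and T and 0.96 for the lymphoid against erythroid branch. With the inner intervals summed in as well (added after seeing the data) these were -0.16, -0.46 (passing), 0.022 and 0.82. The test of 4 populations against 4 gave -0.29 for Rn7s1, not passing.

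Of the pairs of libraries that stood apart, leaving out library 1 of GMP, MEP and Erythroid together let CLP against B and T (0.32) and the lymphoid against granulocyte-monocyte branch (0.61) pass for Rn7s2 and GMP against Myloid for the sum (-0.47). Leaving out library 2 of each let the lymphoid against erythroid (1.10) and granulocyte-monocyte against erythroid branch (0.79) pass for Rn7s1. For Rn7s2 it did so for CLP against B and T (0.28) and both other branch differences (0.52 and 0.71), and for the sum between stages (-0.21) and for GMP against Myloid (-0.38). In both, 6 populations were called for Rn7s1 and 4 for Rn7s2.

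Leaving out 1 library at a time, Rn7s1 ranged from -0.42 to -0.17 between stages, -0.70 to -0.47 for GMP against Myloid, -1.39 to -0.72 for MEP against Erythroid and 0.52 to 1.13 for the lymphoid against erythroid branch, with 7 to 15 pairs and 1 to 6 populations called. Rn7s2 ranged from 0.19 to 0.35 for CLP against B and T and 0.47 to 0.77 for the granulocyte-monocyte against erythroid branch, with 4 to 13 pairs and 1 to 3 populations called. The sum ranged from -0.27 to -0.077 between stages, -0.10 to 0.16 for CLP against B and T and -0.48 to -0.25 for GMP against Myloid, with 7 to 17 pairs called. A population left with 1 library was assumed to vary like the others.

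Same-numbered libraries were not treated as paired, as the labels give no pairing. Over 28 pairs of populations their deviations correlated at r = -0.91 to 0.82, above 0.1 in 18. Every pair with MEP was negative, down to -0.80 with GMP and -0.91 with Erythroid, and every pair without MEP was positive. A block by library number cannot take up a difference that runs the other way in MEP. With the replicate number as a block, Rn7s1 no longer passed for GMP against Myloid (-0.60, adjusted p = 0.0606, edgeR), and no other call on the genes or the sum changed. The log2 ratio of the 2 genes between stages did not pass under any of its 21 alternatives.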
